A study of Mus musculus with 34 samples.

Results

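The hippocampal transcriptome of 5 compound (Hdac1 cKO; 5XFAD) mice was compared with that of 5 Hdac1 cKO mice, which asks what the 5XFAD transgenes change in a brain that already lacks neural HDAC1. The 10 mice were taken by their genotype labels from the 34 samples of the series, of which 27 have a processed file of gene expression. Both groups carried floxed Hdac1 alleles and Nestin-Cre (Hdac1f/f, Nestin-Cre), and the compound mice carried the 5XFAD transgenes in addition (Hdac1f/f, Nestin-Cre, 5XFAD). The labels give an age of 13 to 14 months for the Hdac1 cKO mice and of 13 months for the compound mice. No control mouse entered this comparison. A second pair of groups, 6 5XFAD mice (Hdac1f/f, 5XFAD) and 4 control mice (Hdac1f/f), gave the same contrast without the Hdac1 deletion and shared no mouse with the first. Their labelled ages are 13 months for 5XFAD and 13 to 14 months for control. Libraries were made from the 3′ ends of transcripts in total hippocampal RNA, and levels are FPKM, the fragments assigned to a gene scaled by its transcript length and by the library's mapped total. Per the study's methods the mice were male. Nothing in the sources used here says which mice shared a litter, so the p-values measure the spread between these samples.

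HDAC1 is a class I histone deacetylase that removes acetyl groups from histones and from other proteins. Nestin-Cre acts in the neural lineage, so that the deletion covers neurons and astrocytes while microglia, which come from another lineage, keep the gene. The 5XFAD transgenes, mutated human APP among them, are under the control of the Thy1 promoter, active mainly in neurons, and lead to amyloid plaques. Around plaques, microglia lower part of their resting program and raise a disease-associated one that depends on TREM2 and its adaptor TYROBP, and astrocytes raise the filament protein GFAP. A homogenate of whole hippocampus cannot tell more cells of a type from more RNA per cell.

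The Hdac1 cKO and compound libraries came under separate sets of labels, with differing protocol text and age wording, and the same held for the control and 5XFAD libraries. Whether they were prepared and sequenced together is not given in the sources used here, so a difference in preparation and the 5XFAD genotype cannot be told apart on either background. Relative depth, estimated from the smallest steps between low FPKM values and set to 1.0 in control mouse 1, was 1.5 to 2.35 in the Hdac1 cKO mice and 0.754 to 2.24 in the compound mice, with medians of 1.79 and 1.03. Between 7542 and 7907 of the 23951 listed genes were at 0 in the Hdac1 cKO mice and between 7428 and 8577 in the compound mice. Compound mouse 4 was the deepest compound library. Ttr, which encodes the transthyretin that choroid plexus epithelium secretes in large amounts, was at 13900 FPKM in compound mouse 1 and at 1610 FPKM in Hdac1 cKO mouse 5, against 56.5 to 265 FPKM in the other 8 mice.

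**Figure D1:**
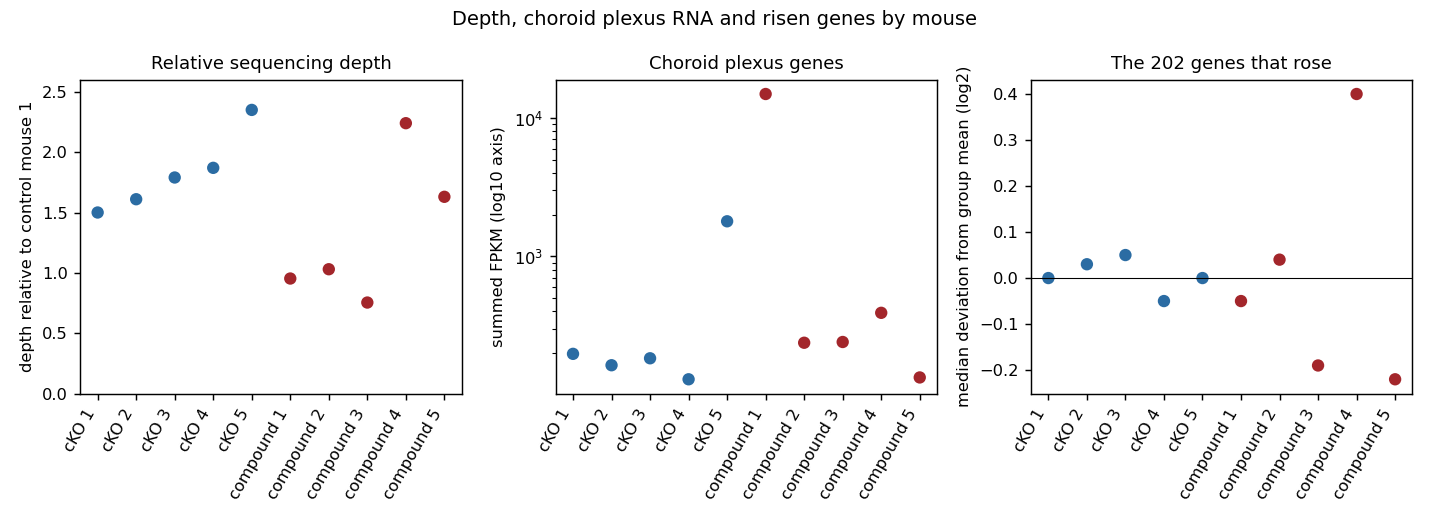
Each point is one mouse (blue, Hdac1 cKO; red, compound). The left panel gives sequencing depth relative to control mouse 1, the middle panel the summed FPKM of the choroid plexus genes on a log10 axis, and the right panel the median deviation, in log2 units, of the 202 genes that rose from their own group's mean. Compound mouse 1 stood at 14900 summed FPKM of choroid plexus genes, and compound mouse 4 stood 0.40 above its group mean for the risen genes.

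The genotypes were checked first. Hdac1 was at 3.00, 3.03, 2.62, 2.70 and 2.36 FPKM in Hdac1 cKO mice 1 to 5 and at 1.82, 2.52, 1.15, 1.86 and 2.24 FPKM in compound mice 1 to 5, against 5.91 to 10.7 FPKM in the 4 control mice. All 10 mice lay below every control mouse, and the 2 deleted groups overlapped each other. Each deleted group differed from the controls with a p of 0.0159 by exact permutation (two-sided), the smallest that 5 mice against 4 can give. The compound mice were 0.37 lower than the Hdac1 cKO mice on the log2(FPKM + 1) scale (SE 0.16), with an exact permutation p of 0.0159 for this gene alone and a limma adjusted p of 0.408 over all genes. Thy1 was at 320, 329, 388, 351 and 367 FPKM in the Hdac1 cKO mice and at 1640, 1890, 1710, 2360 and 1860 FPKM in the compound mice. It was thus 5.39-fold higher where the labels give 5XFAD (log2 difference 2.42, SE 0.10, limma adjusted p = 1.72e-08). Thy1 (mm9 chr9:43851467-43856662) supplies the promoter of the transgenes, and reads of the resident gene and of the transgenes cannot be told apart. App, whose mouse and human forms share much of their sequence, was at 202 to 234 FPKM in the Hdac1 cKO mice and 233 to 255 FPKM in the compound mice (log2 difference 0.14, limma adjusted p = 0.497).

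In the compound mice, genes of microglia, complement, lysosomes and reactive astrocytes rose, and few genes fell. Of 14195 genes tested with limma, 202 rose (1.42%) and 9 fell (0.0634%) at an adjusted p under 0.05. The median log2 difference was 1.15 among the rises, -0.71 among the falls and -0.01 over all genes. The rises spanned log2 differences of 0.25 to 6.18, and 125 of them were at least 1. Irrespective of any test, all 5 compound mice lay above all 5 Hdac1 cKO mice for 346 genes (2.44%) and below them for 128 genes (0.902%). By the thresholds of the study, a fold of 1.5 and an unadjusted p under 0.05, 504 genes (3.55%) were differentially expressed, 417 up and 87 down. At an unadjusted p under 0.05 alone, 1468 genes (10.3%) were reached, 896 higher (6.31%) and 572 lower (4.03%), and these are the shares beside which the unadjusted counts of the gene lists stand. Of the 201 called genes with 1 position in the mm9 annotation, 59 overlapped another annotated gene, 15 of them on the same strand, and reads in such stretches may belong to either gene. Among the genes named here this holds on the same strand for Apoc4, Bcl2a1b, Ctsd, Ctss, Irf8, Lilrb4, Gpx2-ps1, 2610318N02Rik and Trpc5. Whether the authors' counting used strand is not given in the sources used here. Without compound mouse 1 and Hdac1 cKO mouse 5, the mice with over 1000 FPKM of Ttr, 119 genes rose and 2 fell. Leaving out 1 mouse at a time gave 143 to 239 rises and 4 to 22 falls.

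The genes that define disease-associated microglia had the highest median of the 40 gene lists examined. Of 34 such genes tested, 29 rose and none fell, with a median log2 difference of 1.56 beside -0.01 over all genes. The 5 that did not pass were Spp1 (2.82, limma adjusted p = 0.0773), Lgals3bp (1.62), Timp2 (0.37), Fabp5 (0.30) and Ank (0.07). Cst7, which encodes the cathepsin inhibitor cystatin F (mm9 chr2:150396151-150404680), was at 0.781, 1.95, 1.09, 0.839 and 1.67 FPKM in Hdac1 cKO mice 1 to 5 and at 137, 206, 112, 287 and 115 FPKM in compound mice 1 to 5. The groups were far apart in every mouse, and Cst7 had the largest log2 difference of all called genes, 6.18 (SE 0.26, limma adjusted p = 2.11e-07). Trem2, the lipid-sensing receptor on which the disease-associated program depends (mm9 chr17:48485726-48493472), was at 20.2, 19.8, 17.4, 15.4 and 18.9 FPKM in the Hdac1 cKO mice and at 76.0, 134, 75.1, 144 and 108 FPKM in the compound mice. The lowest compound mouse had over 3 times the level of the highest Hdac1 cKO mouse (log2 difference 2.44, SE 0.18, limma adjusted p = 1.48e-05). Tyrobp, which encodes its signaling adaptor, went from 129 to 192 FPKM in the Hdac1 cKO mice to 613 to 1320 FPKM in the compound mice (2.40, limma adjusted p = 4.46e-05).

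Surface receptors and secreted factors of the same program rose with Trem2. Clec7a, the beta-glucan receptor dectin-1, was at 0.197, 0.276, 0.0826, 0 and 0.503 FPKM in the Hdac1 cKO mice and at 6.98, 2.86, 8.24, 9.25 and 6.10 FPKM in the compound mice. It was near 0 in the first group and present in every mouse of the second (log2 difference 2.61, SE 0.24, limma adjusted p = 6.03e-05). Ccl3, a chemokine that attracts monocytes, was at 0, 0, 0, 2.24 and 0.888 FPKM in the Hdac1 cKO mice and at 24.7, 17.2, 15.3, 30.6 and 16.1 FPKM in the compound mice. Its neighbor Ccl4, a chemokine of the same family, was at 2.23, 0.836, 1.5, 0.359 and 1.14 FPKM and at 26.7, 27.9, 39.2, 25.8 and 21.1 FPKM in the same order. Both chemokines separated the groups without overlap, by log2 differences of 3.87 (SE 0.34, limma adjusted p = 8.19e-05) and 3.75 (SE 0.22, limma adjusted p = 9.17e-07). Gpnmb, a glycoprotein of lipid-laden phagocytes, rose by 2.32, Itgax, the integrin CD11c, by 1.34, and Axl, a receptor for dying cells, by 0.66. Apoe, the main apolipoprotein of the brain, was abundant in both groups, at 3020 to 4340 FPKM in the Hdac1 cKO mice and 4970 to 7360 FPKM in the compound mice, and rose 1.53-fold (log2 difference 0.61, limma adjusted p = 0.021). Cd52, which encodes a glycoprotein of leukocyte surfaces, rose by 2.67 (SE 0.32, limma adjusted p = 0.00213). Outside the list, Wfdc17, a gene of activated macrophages, rose by 3.14 (SE 0.32, limma adjusted p = 0.000683). The lysozyme genes Lyz2, which is in the list, and Lyz1, which is not, with differences of 2.73 and 2.50, are near-identical copies between which reads could be split, so their separate values are uncertain. Apoc4, an apolipoprotein gene in none of the lists, was listed at 0 in all 5 Hdac1 cKO mice and at 14.3, 10.4, 3.87, 49.5 and 1.80 FPKM in the compound mice (limma adjusted p = 0.0497), and it overlaps Apoc2 on the same strand in the mm9 annotation, so that its reads may belong to either gene.

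**Figure D2:**
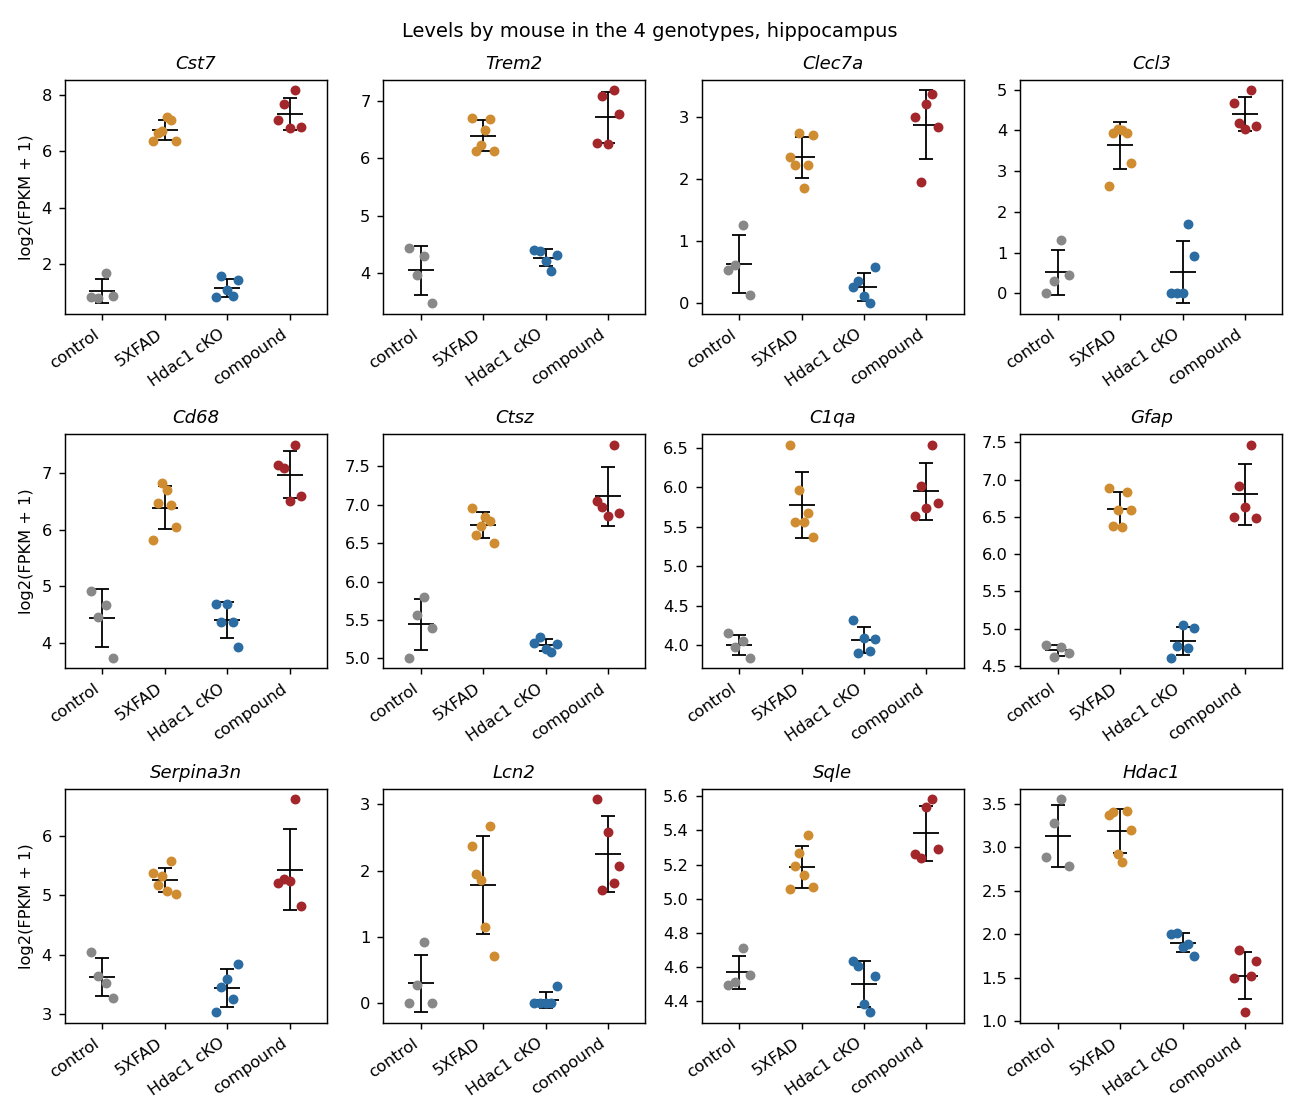
Levels of 12 genes in every mouse of the 4 genotypes, as log2(FPKM + 1); each point is a mouse, the horizontal mark the group mean and the bar 1 SD. The compound mice lie above the Hdac1 cKO mice for the first 11 genes, by 6.18 for Cst7 and 0.88 for Sqle, and Hdac1 is low in both deleted groups.

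Resting microglial genes rose in part. Of 20 homeostatic genes tested, 10 rose and none fell, with a median log2 difference of 0.51. Cx3cr1, the fractalkine receptor, was at 13.8, 14.2, 11.7, 16.6 and 15.2 FPKM in the Hdac1 cKO mice and at 26.7, 31.8, 27.6, 43.6 and 30.5 FPKM in the compound mice. The groups did not overlap (log2 difference 1.10, SE 0.13, limma adjusted p = 0.000556). Csf1r, the receptor that microglia need to survive, rose by 1.01. P2ry12, the purinergic receptor of resting microglia, was at 14.2 to 20.7 FPKM and 19.8 to 28.6 FPKM with a difference of 0.35 that did not pass (limma adjusted p = 0.337), and Tmem119, a microglia-specific membrane protein, differed by 0.22 (limma adjusted p = 0.717). Among 16 genes of microglia and macrophages at large, 9 rose, with a median of 1.08. Fcer1g, the shared Fc receptor gamma chain, rose by 2.03, and Irf8 and Spi1, which encode the myeloid transcription factors IRF8 and PU.1, rose by 1.48 and 1.37. Aif1, which encodes the microglial stain IBA1, had a difference of 1.12 that did not pass (limma adjusted p = 0.112). The summed level of the 16 genes was 190 to 215 FPKM in the Hdac1 cKO mice and 470 to 885 FPKM in the compound mice. None of the 5 perivascular macrophage markers tested rose or fell by limma, with a median of 0.10 and 1 at an unadjusted p under 0.05.

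Immune effector genes were raised across several families. Of 14 complement genes tested, 8 rose and none fell, with a median of 1.16. C1qa, a chain of the initiator of the classical pathway, was at 19.0, 13.9, 16.0, 14.2 and 15.9 FPKM in the Hdac1 cKO mice and at 48.7, 63.8, 52.3, 91.8 and 54.7 FPKM in the compound mice. The 3 C1q chains rose by similar amounts without overlap, 1.88 for C1qa, 1.72 for C1qb and 1.67 for C1qc. C4b rose by 2.14 (limma adjusted p = 0.000256), although reads could be shared with its near-identical neighbor C4a, and C3ar1, the receptor for the C3a fragment, rose by 1.72. C3 itself differed by 0.78 (limma adjusted p = 0.0885). Among 9 Fc and Toll-like receptor genes, 5 rose, with a median of 1.06, including the inhibitory receptor Fcgr2b (1.89), the activating receptors Fcgr3 (1.63) and Fcgr1 (1.73), and Tlr2 (1.42). Of 12 chemokines and cytokines outside the disease-associated list, 4 rose: Cxcl10 (1.43), Cxcl16 (1.32), Ccl2 (1.16) and Il33 (0.56).

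All 23 interferon response genes tested had a positive difference, with a median of 0.92, while 4 passed the test. These were Ifi35 (1.63), Ifitm3 (1.59), Cxcl10 (1.43) and Trim30a (1.26). Ifitm3, a membrane protein that blocks viral entry, was at 58.6, 57.5, 76.6, 77.1 and 70.9 FPKM in the Hdac1 cKO mice and at 215, 226, 141, 440 and 121 FPKM in the compound mice. The compound mice spread over 3-fold and still did not overlap the Hdac1 cKO mice (SE 0.31, limma adjusted p = 0.0412). Ifit1, a sensor of viral RNA, differed by 1.01 (limma adjusted p = 0.151) and Isg15, a ubiquitin-like modifier, by 0.09. Of 16 antigen presentation genes, 4 rose, with a median of 0.76: the immunoproteasome subunit Psmb8 (1.70), the class I genes H2-D1 (1.46) and H2-K1 (1.39), which resemble each other in sequence, and the class II chain H2-Ab1 (1.14).

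Of 31 lysosomal genes tested, 15 rose and 16 did not pass. All 31 differences were positive, with a median of 0.70. Cd68, a glycoprotein of phagocyte lysosomes, was at 24.7, 19.7, 24.7, 19.6 and 14.1 FPKM in the Hdac1 cKO mice and at 141, 136, 90.0, 180 and 96.2 FPKM in the compound mice. The groups were separated by a factor of 6.26 in their means (log2 difference 2.57, SE 0.20, limma adjusted p = 3.22e-05). Ctsz was at 35.8, 37.7, 33.8, 32.9 and 35.5 FPKM in the Hdac1 cKO mice and at 131, 124, 115, 219 and 118 FPKM in the compound mice, a difference of 1.94 (SE 0.15, limma adjusted p = 2.04e-05). Among the other cathepsins, the lysosomal proteases, Ctsd rose by 1.77, Ctss by 1.75, Ctsb by 0.79 and Ctsa by 0.60. The glycosidases Gusb (1.18), Man2b1 (1.11) and Hexa (0.95) rose, as did Grn, which encodes progranulin (1.00), and Npc2, a lysosomal cholesterol carrier (0.85). Lamp1, a lysosomal membrane protein, differed by 0.33 (limma adjusted p = 0.319), and Tfeb, which encodes the transcription factor that drives lysosomal genes, by 0.23 (limma adjusted p = 0.793).

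Of 23 reactive astrocyte genes tested, 12 rose and none fell, with a median of 0.96. Among the 12, Cd14, Cxcl10 and C4b also belong to immune lists above. Gfap, the intermediate filament of astrocytes, was at 23.4, 26.2, 32.0, 25.8 and 31.3 FPKM in the Hdac1 cKO mice and at 89.8, 120, 98.6, 176 and 89.0 FPKM in the compound mice. Its level was 4.14-fold higher in the compound mice and the groups did not overlap (log2 difference 1.97, SE 0.17, limma adjusted p = 4.49e-05). Serpina3n, a secreted protease inhibitor, was at 7.15, 9.95, 11.1, 8.56 and 13.4 FPKM in the Hdac1 cKO mice and at 36.2, 37.8, 37.0, 97.7 and 27.2 FPKM in the compound mice, with compound mouse 4 far above the other compound mice (log2 difference 2.00, SE 0.30, limma adjusted p = 0.00644). Lcn2, an iron-siderophore binding protein, was at 0, 0, 0, 0 and 0.201 FPKM in the Hdac1 cKO mice and at 7.42, 2.28, 5.01, 2.53 and 3.19 FPKM in the compound mice (limma adjusted p = 0.000256). The filament gene Vim rose by 1.90 (limma adjusted p = 0.0309), the hyaluronan receptor Cd44 by 1.03 and Osmr, the oncostatin M receptor, by 0.96. Genes of astrocyte homeostasis gave a median of 0.12 over 18 tested, of which 2 rose, the water channel Aqp4 (0.86, limma adjusted p = 0.0068) and S100b (0.35, limma adjusted p = 0.0352). The glutamate transporter Slc1a2 differed by -0.04 and the glutamine synthetase Glul by -0.03.

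**Figure D3:**
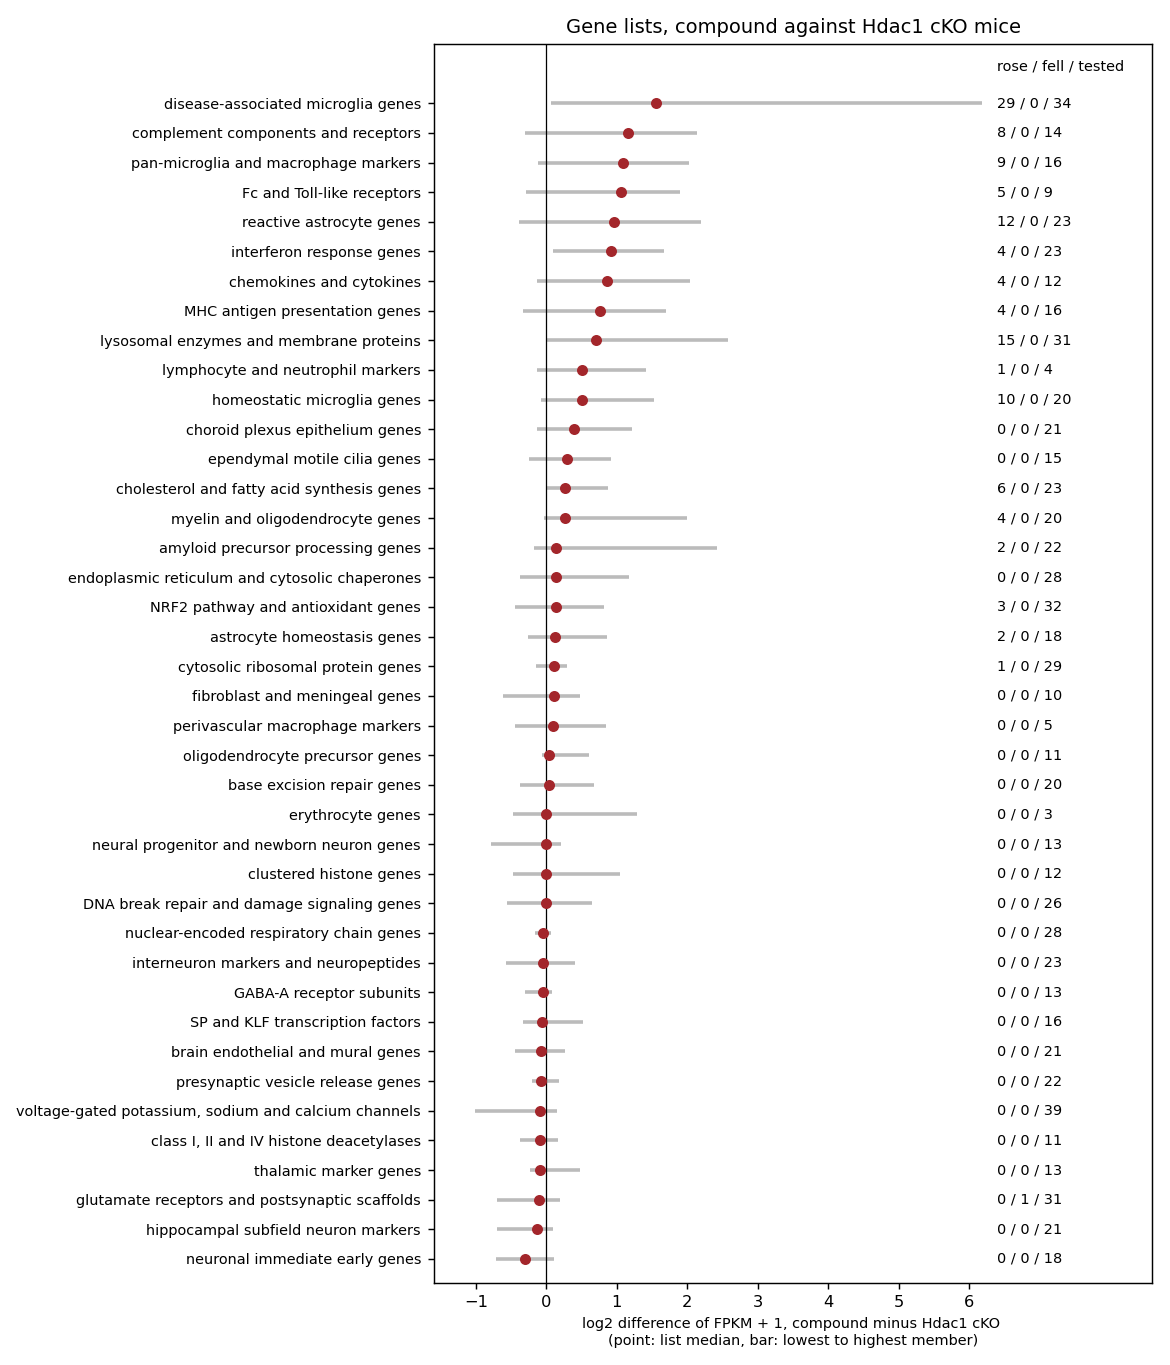
The 40 gene lists in order of their median log2 difference of FPKM + 1, compound minus Hdac1 cKO. Points are list medians, bars run from the lowest to the highest tested member, and the figures at the right count the members that rose, fell and were tested. Disease-associated microglia genes are at the top (29 of 34 rose, median 1.56) and neuronal immediate early genes at the bottom (median -0.30).

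The promoters of the risen genes were then searched for short motifs. Sequences from 250 bases before to 50 bases after the annotated start were taken from RefSeq (GRCm38.p6), and 8329 of the tested genes had exactly 1 such promoter, among them 134 of the rises and 5 of the falls. The letters GAGGAAGT, a core bound by ETS factors such as PU.1, were present on either strand in 10.4% of the promoters of risen genes and in 2.81% of all promoters of the same length. The AP-1 core TGACTCA was in 8.96% against 3.29%, the interferon-response core GAAANNGAA in 13.4% against 6.81%, and the STAT core TTCNNNGAA in 9.7% against 6.76%. GC boxes were less frequent in the promoters of risen genes, GGGCGG in 48.5% against 64.6% and the longer GGGGCGGGG, which contains it, in 15.7% against 21.8%. The median GC content was 55.7% in the risen genes and 61.0% in all. These shares are descriptions of letters and carry no test, and base composition differed between the sets.

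The 14 risen genes with the ETS core included the cathepsin gene Ctss, the complement gene C1qc, the tetraspanin gene Cd53 and Pycard, which encodes the inflammasome adaptor ASC. The 80 bases around the match are shown for the 6 with the largest log2 differences because this is the motif with the largest ratio of shares, with the core in capitals on whichever strand it lies and the gene's own strand written 5′ to 3′. Bcl2a1b (log2 difference 2.41; chr9:89199089-89199168, plus strand) belongs to a family of near-identical copies of an anti-apoptotic gene, so that its counted level is uncertain. The others are Ctss (1.75; chr3:95526748-95526827, plus strand), Samsn1, a lymphoid and myeloid adaptor gene (1.69; chr16:75909273-75909352, minus strand), C1qc (1.67; chr4:136893066-136893145, minus strand), Slamf9, a SLAM-family receptor gene (1.58; chr1:172475316-172475395, plus strand) and Pycard (1.43; chr7:127993868-127993947, minus strand). Samsn1 holds 2 matches in this stretch, on opposite strands.
Bcl2a1b: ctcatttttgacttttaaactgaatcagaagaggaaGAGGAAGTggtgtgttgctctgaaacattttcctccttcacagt
Ctss: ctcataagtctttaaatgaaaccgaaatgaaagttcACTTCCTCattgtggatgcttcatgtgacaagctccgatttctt
Samsn1: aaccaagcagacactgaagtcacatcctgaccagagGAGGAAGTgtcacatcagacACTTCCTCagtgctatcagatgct
C1qc: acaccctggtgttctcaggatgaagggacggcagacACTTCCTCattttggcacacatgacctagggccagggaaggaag
Slamf9: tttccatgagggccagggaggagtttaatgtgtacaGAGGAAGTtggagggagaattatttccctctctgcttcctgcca
Pycard: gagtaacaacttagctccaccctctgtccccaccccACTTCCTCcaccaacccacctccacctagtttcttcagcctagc
The first base of the match lay 148 bases before the annotated start in Bcl2a1b, 2 bases before it in Ctss, 50 and 30 bases before it in Samsn1, 195 bases before it in C1qc, 8 bases before it in Slamf9 and 44 bases before it in Pycard.

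Lipid and antioxidant genes moved in part. Of 23 genes of cholesterol and fatty acid synthesis, 6 rose and none fell, with a median of 0.27. Sqle, squalene epoxidase, was at 23.9, 23.4, 19.9, 19.2 and 22.4 FPKM in the Hdac1 cKO mice and at 37.4, 36.8, 45.4, 46.9 and 38.1 FPKM in the compound mice. This was a shift of all 5 mice with little spread (log2 difference 0.88, SE 0.10, limma adjusted p = 0.000386). Msmo1 (0.83), Nsdhl (0.68), Idi1 (0.64) and Fdft1 (0.58) act in the same cholesterol pathway and rose too. Of 32 NRF2 pathway and antioxidant genes, 3 rose, with a median of 0.13: the peroxiredoxin Prdx6 (0.77), the glutathione peroxidase Gpx1 (0.54) and the metallothionein Mt1 (0.54). Nfe2l2, which encodes NRF2, differed by 0.65 (limma adjusted p = 0.238). Of 20 myelin and oligodendrocyte genes, 4 rose, with a median of 0.27. They were Serpina3n and Il33, already described, Trf, which encodes transferrin (0.89), and the tight junction gene Cldn11 (0.66), whereas Mbp, myelin basic protein, differed by 0.24 (limma adjusted p = 0.504). In the amyloid processing list, Thy1 and Clu, the chaperone clusterin (0.51, limma adjusted p = 0.0103), rose among 22 tested, with a median of 0.14.

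The 9 falls had a median log2 difference of -0.71, and Grin2a alone among them belonged to one of the lists. Grin2a, which encodes the NMDA receptor subunit GluN2A (mm9 chr16:9577803-9995014), was at 8.14, 6.34, 9.34, 7.02 and 8.23 FPKM in the Hdac1 cKO mice and at 4.48, 5.44, 4.25, 4.07 and 3.77 FPKM in the compound mice. It fell by 0.70 on the log2 scale without overlap (SE 0.13, limma adjusted p = 0.0138). Prss12, a synaptic serine protease also called neurotrypsin, was at 11.5, 9.38, 9.62, 8.82 and 8.25 FPKM in the Hdac1 cKO mice and at 4.55, 5.18, 6.77, 3.99 and 6.91 FPKM in the compound mice. Trpc5, a cation channel of neurons, was at 5.26, 5.51, 4.59, 5.65 and 5.31 FPKM and at 3.74, 3.08, 2.78, 3.39 and 3.29 FPKM in the same order. These also kept the groups apart, with differences of -0.71 for Prss12 (SE 0.15, limma adjusted p = 0.0289) and -0.56 for Trpc5 (SE 0.12, limma adjusted p = 0.0309). Ackr3, a scavenging chemokine receptor, fell by 0.70 and Tmem70, an assembly factor of the mitochondrial ATP synthase, by 0.53. The other 4 falls were of little-known transcripts: 6430706D22Rik (-1.42), Gpx2-ps1 (-1.14), 2610318N02Rik (-1.01) and Gm10677 (-0.82). Of these, 2610318N02Rik was near the floor in the compound mice, at no more than 0.303 FPKM. The compound libraries had a median relative depth of 1.03, against 1.79 in the Hdac1 cKO mice, and whether depth played a part in the falls was not tested. Gpx2-ps1 is a pseudogene that lies within Pgm2l1 on the same strand, so its reads may belong to another gene. Without the 2 mice with over 1000 FPKM of Ttr, 2 genes fell.

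**Figure D4:**
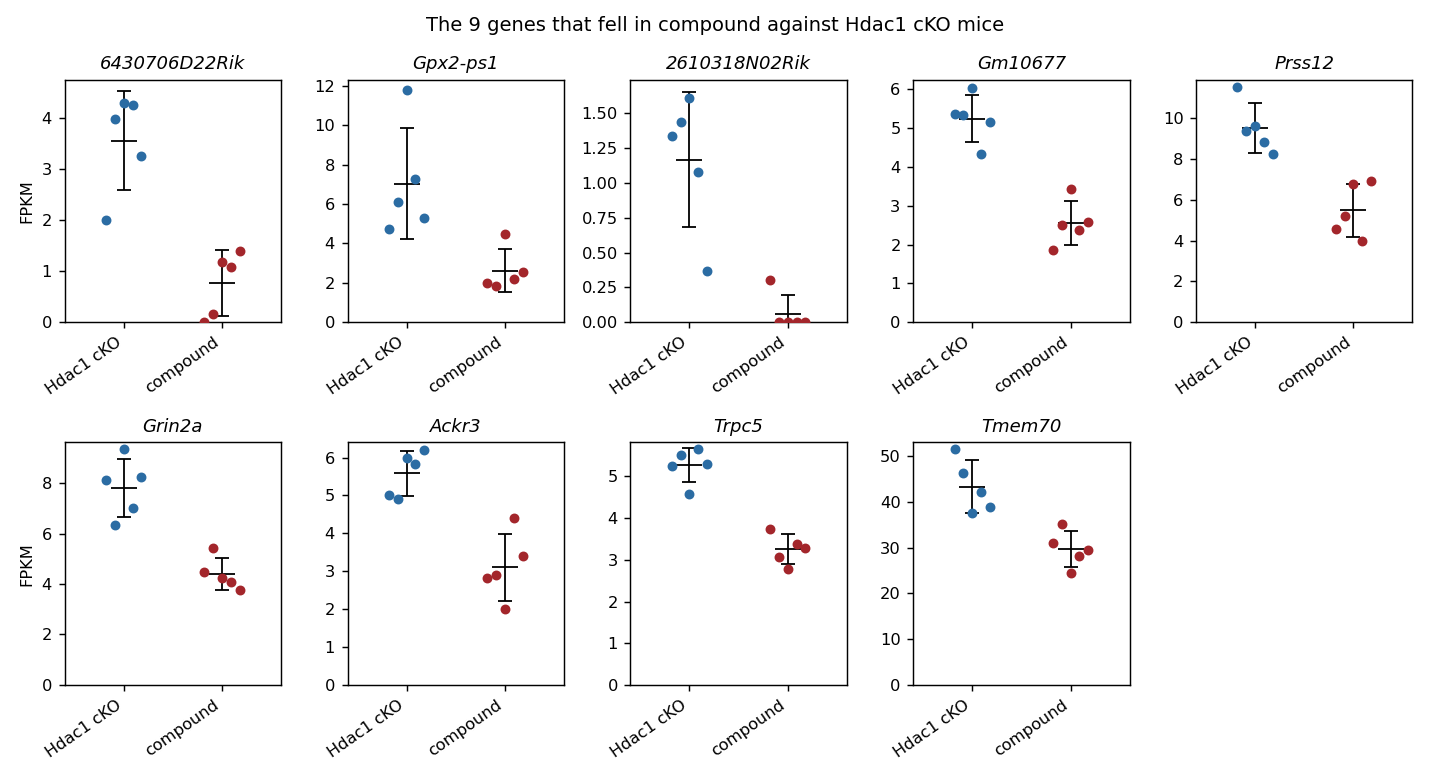
FPKM of the 9 genes that fell, in each Hdac1 cKO mouse (blue) and compound mouse (red), with the group mean and 1 SD. In each panel every compound mouse lies below every Hdac1 cKO mouse; Grin2a fell by 0.70 and Tmem70 by 0.53 on the log2 scale.

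Few neuronal genes passed the test. Of 31 glutamate receptor and postsynaptic scaffold genes, Grin2a fell and the median was -0.10, with 22 differences negative and 5 genes lower and 0 higher at an unadjusted p under 0.05 (4.03% of all genes were lower). Gria1, the AMPA receptor subunit GluA1, had a difference of -0.28 (limma adjusted p = 0.255) and Grin2b, the GluN2B subunit, of -0.30 (limma adjusted p = 0.273). Immediate early genes, which neuronal firing induces, gave the lowest median of the 40 lists, -0.30 over 18 genes, of which 16 had a negative difference and none passed the limma test, 7 being lower at an unadjusted p under 0.05, where 4.03% of all genes were lower. Nr4a2, an orphan nuclear receptor, was at 16.6 to 19.7 FPKM in the Hdac1 cKO mice and at 9.58 to 16.4 FPKM in the compound mice (difference -0.49, limma adjusted p = 0.162). Nr4a1 (-0.71), Arc (-0.60) and Egr1 (-0.46) overlapped between groups. No gene passed by limma among 22 presynaptic release genes (median -0.07, 1 lower at an unadjusted p under 0.05), 13 GABA-A receptor genes (median -0.05, 0 at an unadjusted p under 0.05), 23 interneuron and neuropeptide genes (median -0.05, 1 higher and 3 lower), 21 hippocampal subfield markers (median -0.14, 5 lower) and 39 voltage-gated channel genes (median -0.09, 4 lower). Over all genes, 6.31% were higher and 4.03% lower at that p. Somatostatin, encoded by Sst, was at 560 to 762 FPKM and 377 to 589 FPKM (difference -0.29, limma adjusted p = 0.428), and Calb1, a calcium buffer of granule cells and interneurons, was at 69.2 to 75.6 FPKM and 34.9 to 69.4 FPKM (-0.36, limma adjusted p = 0.415). The 13 progenitor and newborn neuron genes tested had a median of 0.00, with none called by limma and 2 lower at an unadjusted p under 0.05.

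Genes close to the function of HDAC1 were not called. None of 11 histone deacetylase genes passed the limma test (median -0.09, 1 lower at an unadjusted p under 0.05, Hdac1 itself), and Hdac2, the closest paralog, was at 12.6 to 19.0 FPKM and 12.9 to 23.4 FPKM (difference 0.09). Of 20 base excision repair genes none passed by limma (median 0.03, 2 higher and 1 lower at an unadjusted p under 0.05, which 10.3% of all genes reached). Ogg1, the glycosylase that removes 8-oxoguanine, was at 0.304, 0.570, 0.383, 0.613 and 0.584 FPKM in the Hdac1 cKO mice and at 0, 0, 0.304, 0.613 and 0.141 FPKM in the compound mice, too low to be tested. Among 26 genes of DNA break repair and damage signaling none passed by limma (median -0.01, 3 higher and 2 lower at an unadjusted p under 0.05), with Gadd45a at 0.65 (limma adjusted p = 0.178) and H2afx, which encodes the histone variant phosphorylated at breaks, at -0.56 (limma adjusted p = 0.144). The 28 chaperones (median 0.13, 7 higher at an unadjusted p under 0.05), 12 clustered histone genes (median -0.01, 2 higher), 16 SP and KLF factors (median -0.06, 1 higher) and 28 respiratory chain genes (median -0.05, 0 at an unadjusted p under 0.05) held no gene called by limma. Of 29 ribosomal protein genes, Rpl7 rose (0.25, limma adjusted p = 0.0425) and the median was 0.11, with 8 genes higher at an unadjusted p under 0.05 (6.31% of all genes were higher).

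Markers of other cells and neighboring tissue were compared in the same way. Choroid plexus genes, whose summed level ran from 129 to 1790 FPKM in the Hdac1 cKO mice and from 133 to 14900 FPKM in the compound mice, had a median of 0.39 over 21 genes, with none called by limma and 1 higher at an unadjusted p under 0.05. Ttr itself had an exact permutation p of 0.492. Ependymal cilia genes had a median of 0.29 over 15, with none called and 2 higher at an unadjusted p under 0.05. No gene was called by limma among 21 endothelial and mural genes (median -0.07, 2 lower at an unadjusted p under 0.05), 10 fibroblast and meningeal genes (0.11, 0), 11 oligodendrocyte precursor genes (0.04, 3 higher), 13 thalamic markers (-0.09, 1 higher) and 3 erythrocyte genes (0.00, 0), beside 10.3% of all genes at that p. Of 4 lymphocyte and neutrophil markers tested, Nkg7, a granule protein of cytotoxic cells, rose from 0 to 0.626 FPKM in the Hdac1 cKO mice to 1.12 to 5.34 FPKM in the compound mice (1.42, limma adjusted p = 0.0142), while the T cell gene Cd3e was at 0 in all 5 Hdac1 cKO mice and at most 0.111 FPKM in the compound mice.

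The levels of the risen genes were not even across the compound mice. Of the 202 rises, compound mouse 4 had the highest level of the 5 compound mice for 144, and mice 3 and 5 had the lowest for 71 and 74. The same counts were not made over all tested genes, so a shift of a whole library cannot be told apart from one of the risen genes. For the 29 disease-associated microglia genes that rose, mouse 4 was highest in 24 and stood 0.49 above its group mean in the median on the log2 scale, while mice 3 and 5 stood 0.30 and 0.26 below it (medians of -0.30 and -0.26). For the 12 reactive astrocyte genes mouse 4 was highest in 9, with a median of 0.62 above the mean. The Hdac1 cKO mice had median deviations between -0.05 and 0.05 from their group mean over the 202 genes. Some of these genes, such as Clec7a and Lcn2, were near 0 FPKM in that group, where the log2(FPKM + 1) scale shrinks deviations. Mouse 4 was the deepest compound library, at 2.24, and mouse 3 the shallowest, at 0.754, while mouse 5 was at 1.63. Whether depth played a part in these levels was not tested. Without compound mouse 4, 152 genes rose.

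The 5XFAD effect was then set beside that on the control background. In 5XFAD against control mice, 96 of 14402 genes rose (0.667%) and 6 fell (0.0417%) by the same limma test. Of the rises, 73 were shared, 36.1% of the 202 on the Hdac1 cKO background and 76.0% of the 96 on the control background, whereas no fall was shared. The 202 genes had a median difference of 1.15 on the Hdac1 cKO background, where they were chosen, and of 0.69 on the control background, where 186 were positive. The 96 genes chosen on the control background had medians of 1.19 there and 1.37 on the Hdac1 cKO background, where 94 were positive. Over 13924 genes tested in both, the differences correlated at a Pearson r of 0.222, and at 0.068 over the 13684 genes called in neither. Genes are not independent replicates, and the coefficients are given as a description. Of the 34 disease-associated microglia genes, 18 rose on the control background with a median of 1.11, and of the 23 reactive astrocyte genes 10 rose with a median of 0.89. Markers of neighboring tissue had medians of opposite sign on the 2 backgrounds, with no gene called on either: -1.28 on the control background and 0.39 on the Hdac1 cKO background for choroid plexus genes, and -0.66 and 0.29 for ependymal genes. When the effects were subtracted from each other, 3 choroid plexus and 8 ependymal genes had an unadjusted p under 0.05. Of these lists, 21 and 15 genes were tested on the Hdac1 cKO background and 23 and 16 on the control background. Over all 14389 genes of the subtraction, 8.97% reached that p. The lowest limma adjusted p-values were 0.427 for choroid plexus and 0.331 for ependymal genes.

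**Figure D5:**
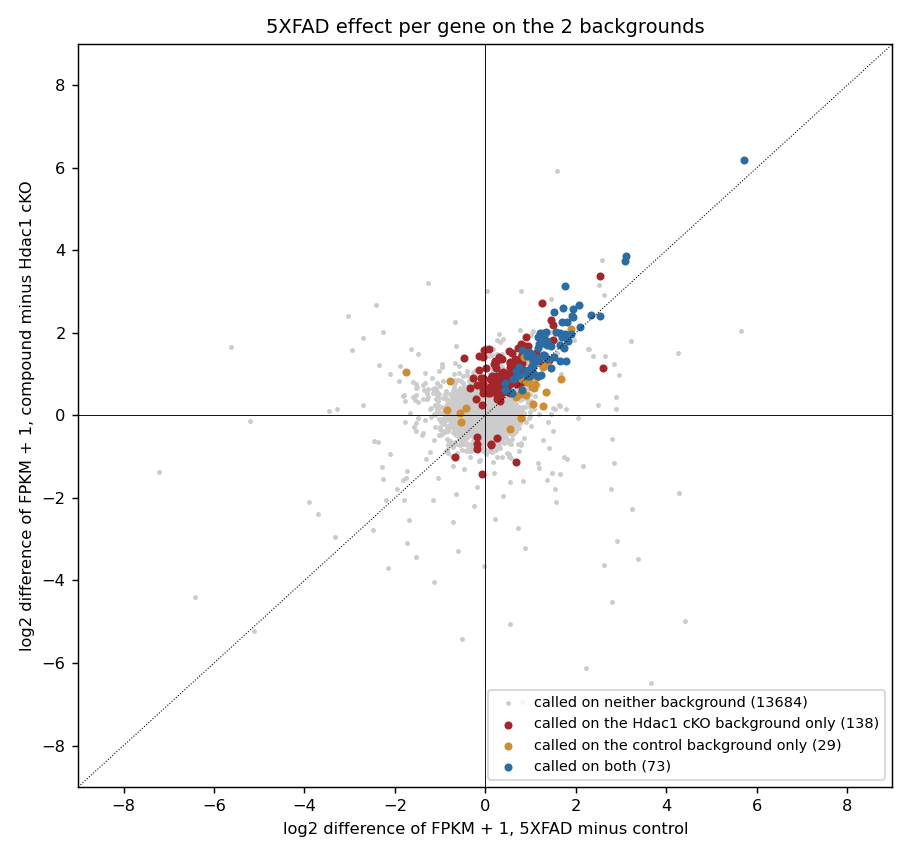
Log2 difference of FPKM + 1 per gene, 5XFAD minus control on the horizontal axis and compound minus Hdac1 cKO on the vertical axis, for 13924 genes; the dotted line marks equal effects. The 73 genes called on both backgrounds lie in the upper right, and 138 were called on the Hdac1 cKO background only and 29 on the control background only.

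A longer list of calls on one background is no test of a difference, so the 5XFAD effects were subtracted from each other in a single limma fit of the 20 mice. None of 14389 genes passed an adjusted p under 0.05, the lowest being 0.226, while 1290 had an unadjusted p under 0.05 (8.97%). The smallest p belonged to Cd63, a tetraspanin of late endosomes. It was at 221, 262, 202, 201 and 192 FPKM in the Hdac1 cKO mice and at 609, 488, 406, 518 and 327 FPKM in the compound mice, a rise without overlap (1.10, SE 0.15, limma adjusted p = 0.00136). On the control background its difference was -0.15, and the difference of the effects was 1.25 (limma adjusted p = 0.226). Cd63 passed in this test when compound mouse 5 or 5XFAD mouse 3 was left out. Katna1, which encodes a microtubule-severing subunit, had the next smallest p, with a difference of the effects of 1.10 (limma adjusted p = 0.226). For 3 of the leading microglial and astrocyte genes the differences of the effects were 0.47 for Cst7 (SE 0.36), 0.10 for Trem2 (SE 0.28) and 0.07 for Gfap (SE 0.22). None of these passed the limma test. By list, 10 disease-associated microglia genes, 8 lysosomal genes and 2 reactive astrocyte genes had an unadjusted limma p under 0.05, beside 8.97% of all genes. Of these lists, 34, 31 and 23 genes were tested on each background. On the control background Ifitm3 differed by -0.03 and Lyz2 by 1.25, against 1.59 and 2.73 here, and the differences of the effects, 1.62 and 1.48, did not pass either. For Grin2a the difference was -0.18 on the control background (limma adjusted p = 0.806), and the difference of the effects was -0.52.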

How the data were processed

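RNA from hippocampus was measured as FPKM in 20 mice of 4 genotypes, of which the 5 compound and 5 Hdac1 cKO mice made the main comparison. The authors aligned reads to mm9 with TopHat and computed the deposited FPKM values with Cufflinks 2.0.0, 1 file per mouse. FPKM holds no read counts, so depth in reads is unknown and a relative depth was read from the steps between low values. Groups came from the labels. Genes that averaged 0.5 FPKM or more across the compared mice were tested on log2(FPKM + 1) with limma 3.58.1 in R 4.3.3 (trend and robust moderation, Benjamini-Hochberg adjustment, threshold 0.05), so that differences of low genes are understated. Single genes were also tested by two-sided exact permutation in Python 3.11.15 with scipy 1.17.1. The scripts were tested on simulated data.

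The members and the 40 gene lists were chosen with earlier results of these data known, and lists carry no test of their own. Named genes were the genotype checks, the 12 largest rises and falls without overlap, up to 4 members with the smallest p and the first gene of each list, and the 6 genes leading the test between backgrounds. Other genes named as examples were chosen after their values were seen. Alternatives were other pseudocounts (0.1), filters (none, 1 FPKM), scalings, variance models, a replicate block, all 4 groups in one fit and leaving out each mouse. Sorted nuclei and chromatin files were not used here, and a few genes that the rule names are not reported here.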

Additional observations from a re-analysis of the deposited data

Results flagged for a closer look

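In 15 of 252 groups of 5 mice examined (5.95%), 1 mouse stood far from the other 4. The limit used is Dixon's 95% critical value, which by its construction chance passes in about 1 in 20 groups of normally distributed values, and the rate for these chosen genes was not tested. Compound mouse 4 accounted for 7 of the 15 and was above its group for Clu (1550 FPKM), Ctsz (219 FPKM), Hexa (70.6 FPKM), Mbp (999 FPKM), Serpina3n (97.7 FPKM), Tmem119 (16.7 FPKM) and Trf (257 FPKM). Ttr stood apart in both groups, at 13900 FPKM in compound mouse 1 and at 1610 FPKM in Hdac1 cKO mouse 5. Among the other compound mice, Ccl2 was high in mouse 3 (3.37 FPKM) and Arc in mouse 5 (10.6 FPKM), and 2610318N02Rik was at 0.303 FPKM in mouse 1 and at 0 in the other 4. Among the Hdac1 cKO mice, H2-Ab1 was low in mouse 4 (1.16 FPKM), Gpr65 was at 0.21 FPKM in mouse 1 and Lcn2 at 0.201 FPKM in mouse 5, the other 4 mice being at 0 for these last genes.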

How the results depend on the processing

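Of the alternatives tried, 2 moved the count of 211 called genes by over 1.5 times. Variances estimated gene by gene without moderation left 101 genes, 95 of them higher, and 54 on the control background. Without compound mouse 1 and Hdac1 cKO mouse 5, an alternative chosen after seeing the data, 121 remained, 119 higher and 2 lower, of which 114 were among the genes reported. The cause of these shifts was not tested. Leaving out 1 mouse at a time gave 148 to 261 calls, 143 to 239 higher and 4 to 22 lower. The count of falls moved most, to 5 without Hdac1 cKO mouse 1, 4 without mouse 2 or mouse 4, 15 without compound mouse 3 and 22 without compound mouse 5. By fold and unadjusted p the count stayed between 431 and 733, and 172 genes were shared between the backgrounds by that rule against 73 by adjusted p. The difference between backgrounds called 0 to 1 gene with 1 mouse left out, the 1 being Cd63 without 5XFAD mouse 3 or compound mouse 5. The share of calls that were higher was 91.6% to 98.3%.

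Nothing in the sources used here says that the replicate numbers pair the mice. Same-numbered mice correlated at -0.054 to 0.078 in their deviations. For Hdac1 cKO mice 1, 2 and 5 the highest correlation was with the compound mouse of the same number, and for mice 3 and 4 with another. These values cannot decide whether the numbers pair the mice, because pairing need not leave a correlation. With the number as a block, 153 genes were called, 140 of them among the 211, and Thy1 still differed by 2.42.

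No named gene past the threshold changed sign, while 51 of 93 lost their call in at least 1 alternative and 9 that had not passed did so in at least 1. Differences near 0 changed sign for Ank (-0.02 without compound mouse 5, and up to 0.10 with another mouse left out), Hdac2 (-0.02 without compound mouse 2, up to 0.18), Isg15 (-0.15 without compound mouse 4, up to 0.27) and Slc1a2 (0.03 without Hdac1 cKO mouse 4, and 0.03 without the 2 mice high in Ttr). Ttr, whose difference of 1.22 rested on compound mouse 1, was at -0.11 without that mouse and at up to 2.08 without Hdac1 cKO mouse 5. Depth in reads is unknown from FPKM, so counting error could not be given for low values.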

Other observations

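Of the 202 rises, 95 belonged to none of the lists, and the genes named here were chosen from them after their values were seen. Mpeg1, which encodes the pore-forming macrophage protein perforin-2, was at 1.09 to 2.11 FPKM in the Hdac1 cKO mice and at 6.50 to 14.4 FPKM in the compound mice (log2 difference 1.97, SE 0.20, limma adjusted p = 0.00015). Lilrb4, an inhibitory receptor of myeloid cells, was at 0.158, 0, 0, 0 and 0.101 FPKM in the Hdac1 cKO mice and at 4.98, 4.13, 4.41, 5.51 and 2.04 FPKM in the compound mice (limma adjusted p = 4.46e-05), although it overlaps Gp49a on the same strand in the mm9 annotation, so that its reads may belong to either gene. Gpr65, a proton-sensing receptor, was at 0.21 FPKM in Hdac1 cKO mouse 1, at 0 in the other 4 and at 1.83 to 2.90 FPKM in the compound mice (limma adjusted p = 6.03e-05). All 3 receptors and effectors of myeloid cells were low or absent in every Hdac1 cKO mouse and present in every compound mouse. Cyba, which encodes a subunit of the phagocyte NADPH oxidase, rose by 1.46 (limma adjusted p = 0.0171). Plin2, which coats lipid droplets, was at 1.70 to 3.81 FPKM and at 4.35 to 9.94 FPKM, a rise of 1.03 (limma adjusted p = 0.0295).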
